A study of Mus musculus with 10 samples.

Results

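Neutrophils are drawn into inflamed tissue by CXC chemokines that carry the residues Glu-Leu-Arg before their first cysteines and that bind the receptor CXCR2. Granulocyte colony-stimulating factor, the product of *Csf3*, drives their production and survival through the receptor encoded by *Csf3r*. S100A8 is one of the most abundant cytosolic proteins of neutrophils and is also made by inflammatory monocytes, FPR2 is a formyl peptide receptor of phagocytes, and the product of *Ptgs2*, cyclooxygenase 2, makes the precursor of the inflammatory prostaglandins. The 10 genes described here, out of 770 genes measured, were *Cxcl1*, *Cxcl2*, *Cxcl3* and *Cxcl5* for the ligands, *Cxcr2* for their receptor, *Csf3* and *Csf3r* for the growth factor pair, and *S100a8*, *Fpr2* and *Ptgs2* for the cells and their activation. They were chosen by name, with the comparison of Siah2 KO and WT tumors already known. Their differences between the groups are therefore a description, with no p-value for any of them. How many passed limma is given only beside the share over all genes. All 10 have a probe in the table.

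To ask how loss of the ubiquitin ligase Siah2 in the host changes the immune genes of a tumor, the study injected 400000 YUMMER1.7 cells under the skin of male C57BL/6 mice, either WT or Siah2 KO (Siah2-/- throughout the animal). YUMMER1.7 is a mouse melanoma line that carries *Braf* V600E/+ and *Cdkn2a*-/- among its engineered alleles and has a high mutation load, and both groups received the same cells, so the genotypes differ in the host and not in the injected cells. The groups held 5 WT tumors (replicates 2 to 6) and 5 Siah2 KO tumors (replicates 1, 2, 3, 5 and 6), each measured once with a NanoString immune panel, in which molecules bound by a probe are counted by a fluorescent barcode. Tumors were taken on day 11 by the sample labels and on day 10 by the legend of the study, and the mice were 5 to 7 weeks old by the same legend and 6 to 10 weeks old by the reporting summary. In the series record, Yumm1.5 cells and Rnf5 are named instead, but every one of the 10 sample labels names YUMMER1.7 and Siah2, and these were followed. The panel has no probe for *Siah2*, so the host genotype cannot be checked in these values. Of 3 genes of melanocytic cells, *Mcam* and *Cspg4* were well measured in all tumors and *S100b* was low, and their summed level was 438 to 595 normalized counts in WT tumors and 224 to 405 in Siah2 KO tumors.

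Values are normalized counts, that is probe counts less a background constant, with a floor of 1, scaled so that 20 reference genes have the same geometric mean in every tumor. The scaling factor read from the steps of the low values was 0.918 to 1.32 in WT tumors and 1.03 to 1.6 in Siah2 KO tumors, and the counts before it summed to between 382877 and 581603 per tumor. The negative control probes reached at most 2.31 to 15.8 normalized counts, depending on the tumor, and this is taken below as the upper edge of background. A difference is the mean of log2(value + 1) in Siah2 KO tumors minus that in WT tumors, with its standard error from limma. Over all 770 genes the median difference was 0.24, and 71.3% of genes were higher in Siah2 KO tumors, which is the level against which the 10 genes are read. Values of different genes come from different probes and are not compared with each other. In bulk tumor RNA, fewer cells of a type and less RNA per cell cannot be told apart.

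*Cxcl5*, *Cxcl3*, *Cxcl1* and *Cxcl2* lie in this order in a stretch of chromosome 5 that also holds *Ppbp*, *Pf4* and *Cxcl15*. The promoters of 3 of them are shown because they share stretches of letters, the longer of which few other genes of the panel have there. Each sequence is the 250 bases before the transcript start in RefSeq (GRCm38.p6), 5′ to 3′ on the + strand. The capitals mark the stretches of at least 8 bases that all 3 share, GGGAATTTCCC, which has the form of a site bound by NF-kB, and ATAAAAGG, a TATA-like stretch.
Cxcl1, chr5:90890995-90891244: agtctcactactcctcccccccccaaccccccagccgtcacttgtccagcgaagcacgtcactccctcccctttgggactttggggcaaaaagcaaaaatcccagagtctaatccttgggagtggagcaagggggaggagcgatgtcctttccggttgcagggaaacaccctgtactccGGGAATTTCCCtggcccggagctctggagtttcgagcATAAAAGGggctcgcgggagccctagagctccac
Cxcl2, chr5:90903649-90903898: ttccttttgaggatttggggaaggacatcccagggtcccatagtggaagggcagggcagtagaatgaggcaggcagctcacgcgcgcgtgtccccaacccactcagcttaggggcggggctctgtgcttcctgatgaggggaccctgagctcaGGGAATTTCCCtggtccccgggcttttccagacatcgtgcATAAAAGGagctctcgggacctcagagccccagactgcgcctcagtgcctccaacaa
Cxcl3, chr5:90785851-90786100: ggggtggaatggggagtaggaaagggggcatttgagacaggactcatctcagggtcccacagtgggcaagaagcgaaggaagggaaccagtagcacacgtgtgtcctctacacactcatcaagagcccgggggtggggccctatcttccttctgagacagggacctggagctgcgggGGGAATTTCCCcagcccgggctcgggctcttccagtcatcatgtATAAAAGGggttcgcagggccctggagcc

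In *Cxcl1* the letters GGGAATTTCCC stood at positions -71 to -61 from the transcript start and ATAAAAGG at -34 to -27. In *Cxcl2* the positions were -97 to -87 and -57 to -50, and in *Cxcl3* they were -73 to -63 and -29 to -22. The stretches do not overlap each other. Both were then searched on both strands in all 32851 RefSeq windows from 250 bases before to 50 bases after a start. GGGAATTTCCC occurred in 14 windows (0.0426%), ATAAAAGG in 577 (1.76%), and both in 3. Windows were found for 570 of the 770 genes and for 8 of the 10 described here, all but *Cxcl5* and *Csf3*. ATAAAAGG was in 16 of the 570 genes (2.81%), 12 of them not among the 10, and also in *Fpr2*, at -112 to -105. Besides *Cxcl1*, *Cxcl2* and *Cxcl3*, *Il16* was the only gene of the 570 with GGGAATTTCCC, and its log2 difference was -0.010 (SE 0.15, adjusted p = 0.96 from limma). The count depends on the last letter. The first 10 letters alone, GGGAATTTCC, occurred in 29 windows (0.0883%) and in 8 of the 570 genes, adding *Nfkbia*, *Gbp5*, *Ccr3* and *Map3k7*. Of these, *Gbp5*, for an interferon-induced GTPase, was higher at 0.999 (SE 0.26, adjusted p = 0.012), *Ccr3* was lower, and *Nfkbia* and *Map3k7*, at 0.24 and -0.14, did not pass (adjusted p of 0.30 and 0.21). Such a match is a description of the letters and says nothing of what binds there.

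Among the ligands, *Cxcl1* was low but measurable in every tumor. Its 5 WT tumors (replicates 2 to 6) had 17.6, 12.1, 22.4, 18.2 and 25.9 normalized counts. The 5 Siah2 KO tumors (replicates 1, 2, 3, 5 and 6) had 34.2, 53.7, 45.5, 38.0 and 31.5. Every Siah2 KO tumor lay above every WT tumor, and the means were 40.6 ± 9.05 and 19.2 ± 5.25 (SD, n = 5 each), a log2 difference of 1.05 (SE 0.21).

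*Cxcl2* was within background in all WT tumors, at 3.23, 1.0, 2.18, 1.32 and 2.79 normalized counts, 2 of them at the floor. In Siah2 KO tumors it had 8.66, 8.92, 49.2, 30.6 and 7.77, and 4 of the 5 tumors exceeded their highest negative control. Replicates 3 and 5 stood well apart from the other Siah2 KO tumors, and there was no overlap with WT. *Cxcl3* had 4.18, 1.0, 2.18, 1.32 and 1.0 normalized counts in WT tumors, all within background. In Siah2 KO tumors it had 28.6, 10.5, 74.5, 33.6 and 1.03, so 4 tumors were above all WT tumors and replicate 6 was at the floor. The log2 differences, 2.49 (SE 0.50) for *Cxcl2* and 2.71 (SE 0.84) for *Cxcl3*, were the fourth and the second highest of the 770 genes, but they rest on how values near the floor are treated. With values under 20 raised to 20 they were 0.38 and 0.63. Without KO replicate 6 the difference of *Cxcl3* was 3.49, and without KO replicate 3 it was 2.19.

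*Cxcl5* was well measured and overlapped between the groups. It had 63.6, 50.05, 119.6, 64.4 and 75.1 normalized counts in WT tumors, where replicate 4 was far above the others. Siah2 KO tumors had 101.9, 129, 96.0, 206 and 92.3. The lowest Siah2 KO tumor was above 4 of the 5 WT tumors, and the log2 difference was 0.73 (SE 0.27), or 0.92 without WT replicate 4 and 0.54 without KO replicate 5. The remaining ligands and the second receptor for this family were at or near background. *Ppbp*, which encodes a platelet chemokine, had 5.79 ± 2.97 normalized counts in WT and 8.59 ± 5.82 in Siah2 KO tumors (SD, n = 5 each, adjusted p = 0.55 from limma). *Cxcl15* was at the floor in 5 WT and 4 Siah2 KO tumors, and *Cxcr1* in 4 of each genotype.

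*Cxcr2*, the receptor that neutrophils carry for these ligands, had 12.8, 9.13, 27.9, 4.97 and 9.54 normalized counts in WT tumors. It had 22.0, 21.7, 32.8, 29.1 and 10.9 in Siah2 KO tumors. The groups overlapped through WT replicate 4 and KO replicate 6, with a log2 difference of 0.93 (SE 0.41) that was 1.24 without WT replicate 4 and 0.67 without WT replicate 5. With values under 20 raised to 20 the difference of *Cxcr2* was 0.21 (SE 0.16), so it too rests on how low values are treated. *Csf3* was within background in all WT tumors, at 1.0, 1.33, 2.18, 1.32 and 1.83 normalized counts. Among Siah2 KO tumors it was at the floor in replicates 1, 3 and 6 (1.11, 1.26 and 1.03), and had 12.1 in replicate 2 and 6.97 in replicate 5. Replicate 2 was the only tumor of the 10 in which *Csf3* exceeded the highest negative control, and the difference of 0.68 (SE 0.52) was 0.25 without it.

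The receptor gene *Csf3r* was far steadier than its ligand. WT tumors had 85.6, 72.5, 74.7, 74.9 and 79.0 normalized counts, a spread of 5.18 (SD) around a mean of 77.3. Siah2 KO tumors had 137, 115, 193, 232 and 109 (mean 157 ± 53.4, SD), all above every WT tumor, with a log2 difference of 0.95 (SE 0.20). *S100a8* had 155, 151, 158, 154 and 119 normalized counts in WT tumors and 188, 191, 384, 251 and 109.8 in Siah2 KO tumors. Of the Siah2 KO tumors 4 exceeded all WT tumors and replicate 6 was below all of them. The log2 difference was 0.49 (SE 0.28), which was 0.27 without KO replicate 3 and 0.72 without KO replicate 6.

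*Fpr2* and *Ptgs2* had the clearest separation. *Fpr2* had 82.7, 69.5, 84.8, 103 and 132 normalized counts in WT tumors and 406, 281, 566, 768 and 403 in Siah2 KO tumors. The lowest Siah2 KO tumor was above the highest WT tumor by a wide margin, with means of 485 ± 188 and 94.3 ± 24.1 (SD, n = 5 each) and a log2 difference of 2.30 (SE 0.27). *Ptgs2* had 160.3, 204, 158, 244 and 206 normalized counts in WT tumors and 958, 851, 1806, 724 and 677 in Siah2 KO tumors. Replicate 3 was highest by far, and the difference of 2.28 (SE 0.26) was 2.05 without it. Over the other scalings, floor and pseudocount that were run, their lowest log2 differences were 1.97 for *Fpr2* and 1.94 for *Ptgs2*.

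**Figure D1:**
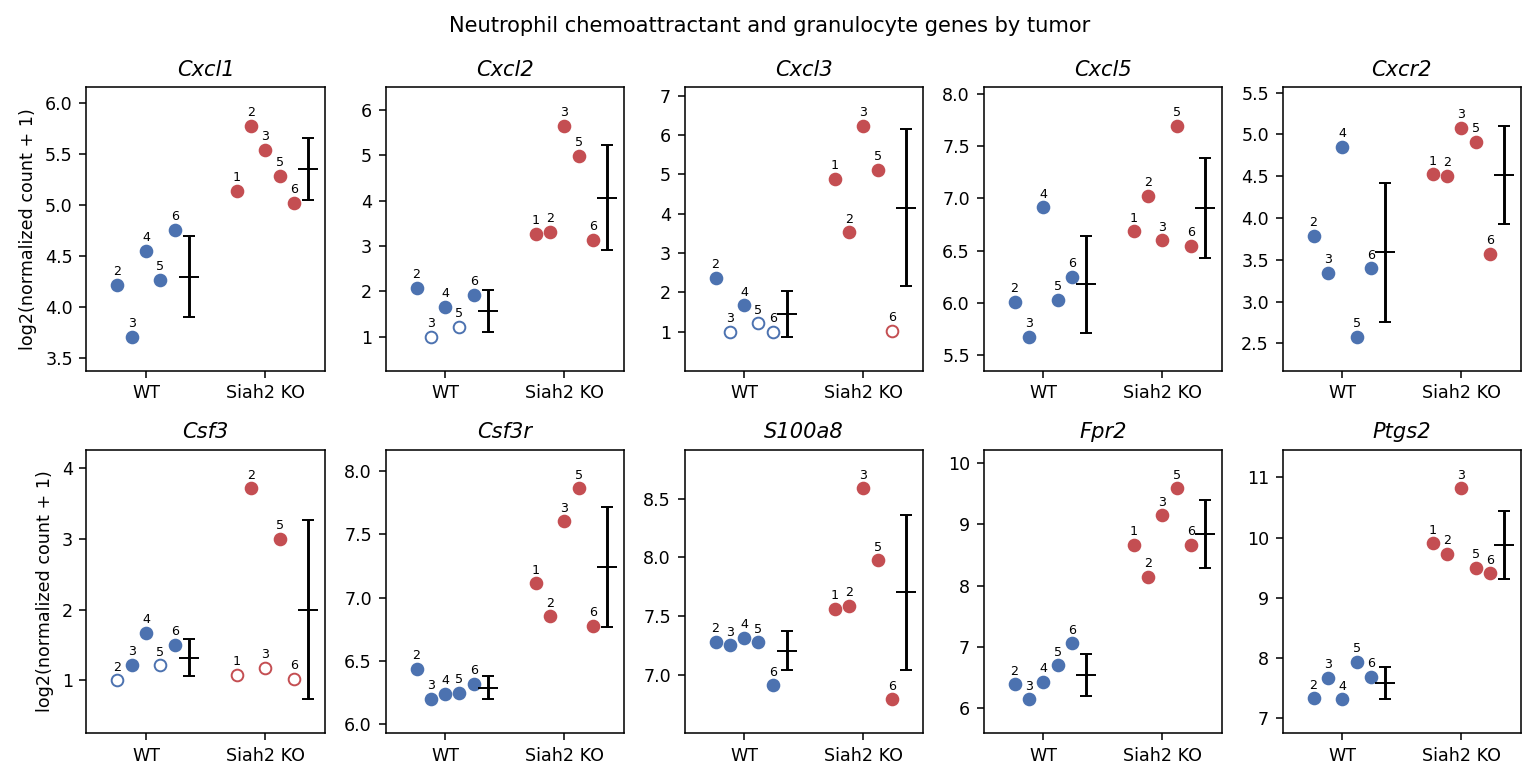
Level of each of the 10 genes in each tumor, as log2(normalized count + 1), with WT in blue, Siah2 KO in red, the replicate number above each point, open points at the floor, and bars for the mean and SD of each group (n = 5). *Cxcl1*, *Cxcl2*, *Csf3r*, *Fpr2* and *Ptgs2* do not overlap between the groups, while KO replicate 6 falls among or below the WT tumors for *Cxcl3*, *Cxcl5*, *Cxcr2*, *Csf3* and *S100a8*.

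Together, all 10 genes had a positive difference, between 0.49 for *S100a8* and 2.71 for *Cxcl3*, and the median over the 10 was 1.0 against 0.24 over all 770 genes. Without *Cxcl2*, *Cxcl3* and *Csf3*, whose WT values lie within background, the median was 0.95. The groups did not overlap for 5 of the 10, where 24.5% of the 770 genes were higher in Siah2 KO tumors without overlap. With limma, 6 of the 10 passed an adjusted p of 0.05 as higher and 0 as lower, beside 31.3% of the 770 genes higher, 9.74% lower and 41.0% in either direction. As the choice of the 10 used this comparison, nothing is read from these counts. By difference, *Fpr2* and *Ptgs2* ranked 7 and 8 from the top of the 770, *Cxcl1* 76, *Csf3r* 93, *Cxcr2* 101, *Cxcl5* 162, *Csf3* 187 and *S100a8* 265.

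**Figure D2:**
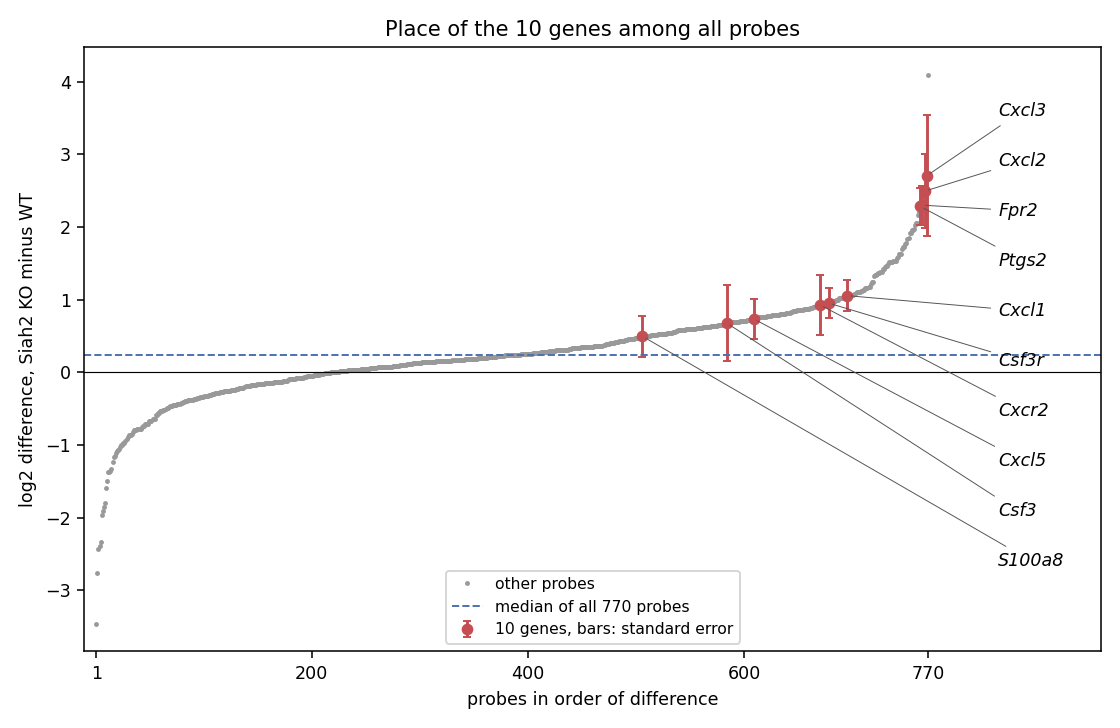
Log2 difference, Siah2 KO minus WT, of all 770 genes in rising order (grey), with the 10 genes in red and bars for their standard error, and the median of all genes (0.24) as a dashed line. All 10 genes lie above the median, 4 of them at the upper end of the curve, and *S100a8* is nearest to it.

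Signs of leukocytes in general moved with these differences. Of 8 genes common to leukocytes, such as *Ptprc* (CD45), *Itgb2* and *Cd53*, limma called 6 higher and 0 lower at an adjusted p of 0.05 (0 lower also at an unadjusted p under 0.05 and by the methods' t-test). Their summed level was 4122 to 5034 normalized counts in WT and 6169 to 9337 in Siah2 KO tumors, without overlap. Taken relative to the median of these genes in the same tumor, the log2 difference was 1.79 (SE 0.23) for *Fpr2* and 1.77 (SE 0.27) for *Ptgs2*, and every Siah2 KO tumor was still above every WT tumor. The same held for *Cxcl2*, at 1.98 (SE 0.52), while *Cxcl3*, at 2.20 (SE 0.89), had 4 Siah2 KO tumors above the WT range. All WT values of *Cxcl2* and *Cxcl3* lie within background, so the size of their differences here also rests on how values near the floor are treated. On that scale *Cxcl1* was at 0.55 (SE 0.27) and *Csf3r* at 0.44 (SE 0.15), where 2 and 3 Siah2 KO tumors exceeded all WT tumors, *Cxcr2* at 0.42 (SE 0.49), *Cxcl5* at 0.22 (SE 0.31), *Csf3* at 0.17 (SE 0.56) and *S100a8* at -0.013 (SE 0.27). The median over the 10 genes was 0.50 on that scale, and 0.74 without WT replicate 4.

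Genes of monocytes and macrophages, which can also express *Fpr2*, *Ptgs2*, *Cxcl1* and *Cxcl2*, did not move as a block. Of 11 such genes, 3 were higher (*Cd68*, *Cd14* and *Fcgr1*), 3 lower (*Cx3cr1*, *Cd163* and *Mrc1*) and 5 did not pass the test. Their summed level overlapped, at 20570 to 26620 normalized counts in WT and 20030 to 37020 in Siah2 KO tumors. The median of these 11 genes itself differed by only 0.0555 on the log2 scale, so differences relative to it had to stay close to those as deposited. On that scale 10 of the 10 genes were above 0, with a median of 0.95. *Fpr2* was at 2.24 (SE 0.26), *Ptgs2* at 2.23 (SE 0.29), *Cxcl1* at 0.999 (SE 0.23) and *Csf3r* at 0.90 (SE 0.16). Fibroblast genes moved in the opposite direction, with 4 of 4 (*Col1a1*, *Col3a1*, *Pdgfrb* and *Fap*) lower at a median of -0.87 and a summed level of 16490 to 21340 normalized counts in WT and 10330 to 12330 in Siah2 KO tumors, without overlap. The part of these cell types in the differences was not tested.

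**Figure D3:**
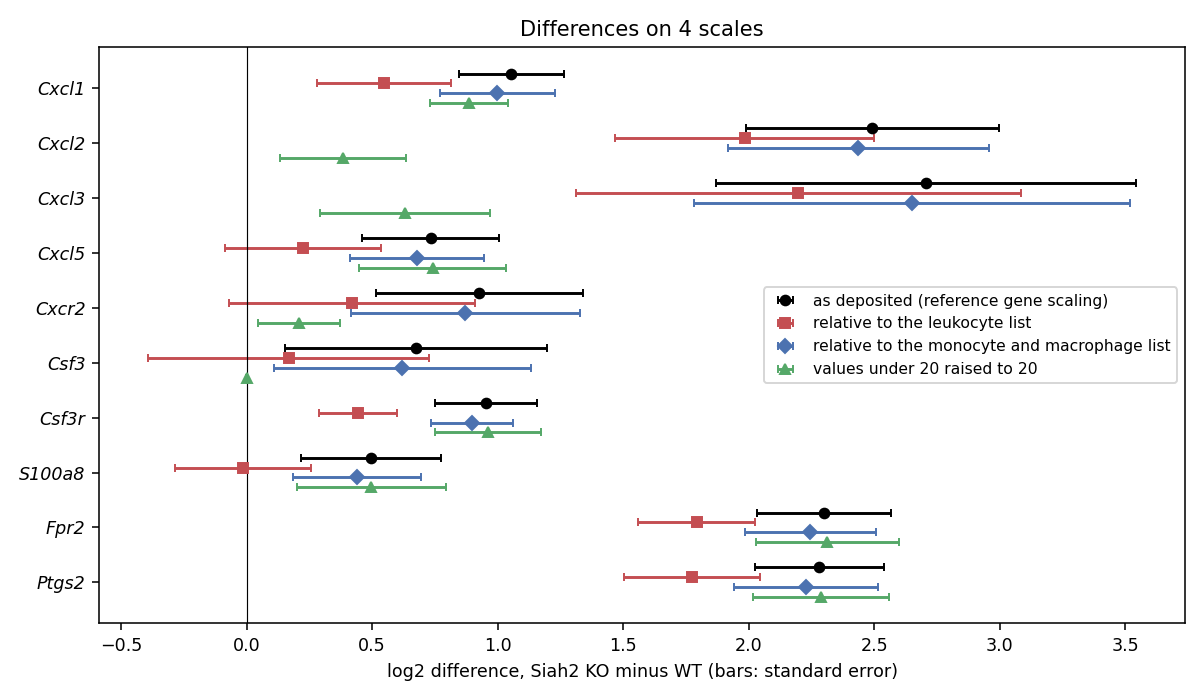
Log2 difference of each of the 10 genes, Siah2 KO minus WT, on 4 scales, as deposited (black), relative to the median of 8 leukocyte genes (red) or of 11 monocyte and macrophage genes (blue) in the same tumor, and with values under 20 raised to 20 (green), with bars for the standard error. *Fpr2* and *Ptgs2* stay at or above 1.77 on all 4 scales and *S100a8* falls to 0 relative to leukocyte genes. When low values are raised, *Cxcl2*, *Cxcl3* and *Cxcr2* shrink to 0.38, 0.63 and 0.21, and *Csf3* to 0.0.

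Markers of the neutrophil itself were sparse in these tumors. Of the 9 markers listed for neutrophils, *S100a8* and *Csf3r* were well measured, *Cxcr2* and *Trem1* were low, and *Cxcr1*, *Mpo*, *Elane*, *Camp* and *Ltf* had group means of at most 4.66 normalized counts. Among 8 genes of granule proteins, limma called 0 higher at an adjusted p of 0.05 and 1, *Mmp9* (gelatinase B, also made by macrophages), was lower. At an unadjusted p under 0.05, 1 was higher, and the methods' t-test with adjustment called 0. Without WT replicate 6, limma called 1 of the 8 higher. *Mpo*, myeloperoxidase, had 2.26 ± 1.52 normalized counts in WT and 4.66 ± 2.52 in Siah2 KO tumors, and *Elane*, neutrophil elastase, 1.89 ± 1.82 and 2.92 ± 1.87 (SD, n = 5 each). *Ltf*, lactoferrin of the secondary granules, was at the floor in 9 of the 10 tumors and *Camp* in 6. *Ctsg*, cathepsin G, was measurable, at 18.0 ± 4.76 and 40.6 ± 21.8 normalized counts (SD, n = 5 each), a log2 difference of 0.96 (SE 0.39, adjusted p = 0.070). *Lcn2*, lipocalin 2, had 325 ± 114 and 449 ± 265 (adjusted p = 0.78). *Chil3* had 57.7 ± 25.3 and 94.2 ± 30.2, a log2 difference of 0.79 (SE 0.36, adjusted p = 0.10). *Mmp9* fell from 68.5 ± 8.33 to 27.1 ± 15.1 normalized counts, a log2 difference of -1.49 (SE 0.37, adjusted p = 0.0085), and its groups did not overlap.

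Genes for surface proteins and the oxidase that neutrophils share with monocytes and macrophages were higher. Of 14 such genes 13 rose at an adjusted p under 0.05, with a median log2 difference of 0.88, and *Clec5a*, at 0.50, did not pass (adjusted p = 0.10). The largest differences were 1.95 for *Bst1* (SE 0.27, adjusted p = 0.00057), a surface ectoenzyme of myeloid cells, 1.57 for *Slc11a1* (SE 0.24, adjusted p = 0.00084), a metal transporter of phagosomes, and 1.45 for *Fcgr4* (SE 0.16, adjusted p = 0.00018), an activating IgG receptor. *Trem1*, a receptor that amplifies neutrophil and monocyte activation, went from 17.4 ± 6.27 up to 41.1 ± 10.1 normalized counts (SD, n = 5 each, log2 difference 1.24, adjusted p = 0.0046). *Itgam* (CD11b) rose by 0.76 (SE 0.16, adjusted p = 0.0039) and *Il1r2*, the decoy receptor for interleukin 1, by 1.24 (SE 0.14, adjusted p = 0.00024). *C5ar1*, the receptor for the chemoattractant C5a, rose by 0.80 (SE 0.13, adjusted p = 0.0011). Of the 14 genes, 11 were called with median scaling and 6 with scaling to the positive control probes.

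Markers of other granulocytes and of mast cells went the other way or did not pass. Of 8 genes, limma called 0 higher and 3 lower at an adjusted p of 0.05 (1 higher and 4 lower at an unadjusted p under 0.05, and 0 higher and 2 lower by the methods' t-test with adjustment). *Ccr3*, the eotaxin receptor of eosinophils, had 19.2 ± 13.7 normalized counts in WT and 2.33 ± 1.99 in Siah2 KO tumors, with 3 tumors at the floor. *Il5ra*, part of the interleukin 5 receptor, had 5.75 ± 4.26 in WT tumors and was at the floor in all 5 Siah2 KO tumors. *Ms4a2*, part of the high-affinity IgE receptor, had 13.8 and 7.55 (adjusted p = 0.049). These levels are near background, and with values under 20 raised to 20 neither *Ccr3* nor *Il5ra* passed. *Ccl11*, the gene for eotaxin 1, in contrast had 97.9 ± 15.1 normalized counts in WT and 344 ± 130.0 in Siah2 KO tumors (SD, n = 5 each, log2 difference 1.72, adjusted p = 0.00094). Other genes of mast cells, *Cma1* and *Tpsab1*, had log2 differences of -0.43 and -0.57 with adjusted p of 0.066 and 0.59.

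A list of 21 genes held signals that induce the CXCR2 ligands, receptors for these signals, and factors that transmit or limit them. Of the 21, 9 rose, 1 fell and 11 did not pass, beside 31.3% of the 770 genes called higher. The median log2 difference was 0.31 against 0.24 over all genes. *Il1rn* and *Tnfaip3*, which limit these signals, are among the 9, so the count is not one of inducing genes alone. The rises were largest for the interleukin 1 and tumor necrosis factor genes, with *Tnf* at 1.52, *Il1b* at 1.51 and *Il1rn*, the interleukin 1 receptor antagonist, at 1.42 (adjusted p at most 0.00057). *Il1r1*, the signaling receptor for interleukin 1, fell by 0.67 (SE 0.10, adjusted p = 0.00085). *Tnfaip3*, an NF-kB target that limits the pathway, rose by 0.89 (SE 0.16, adjusted p = 0.0016), while *Nfkb1*, *Rela*, *Nfkbia* and *Myd88* had differences between 0.079 and 0.24 that did not pass. *Il17f* and *Il17a*, whose products induce these ligands, were mostly at the floor, *Il17f* in all 10 tumors and *Il17a* in 7. *Il17ra*, for their receptor, was well measured and rose by 0.44 (SE 0.087, adjusted p = 0.0028 from limma). *Il6*, at 12.5 ± 9.99 and 16.4 ± 15.7 normalized counts, did not pass (adjusted p = 0.72). Median scaling and quantile normalization each gave 6 of the 21 genes higher, and scaling to the positive control probes 3 higher and 0 lower.

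A list of 14 genes held myeloid growth factors, their receptors, and transcription factors and a regulator that act behind them. Of these, 3 rose and 1, *Il5ra*, fell, and the median was 0.30. The 3 that rose, *Cebpb*, *Socs3* and *Stat3*, encode neither a growth factor nor a receptor for one. *Cebpb*, for a transcription factor of emergency granulopoiesis, had 495 ± 35.2 normalized counts in WT and 1102 ± 317 in Siah2 KO tumors (SD, n = 5 each), a log2 difference of 1.11 (SE 0.18, adjusted p = 0.0011). *Socs3*, which limits signaling by the G-CSF receptor, rose by 0.69 (SE 0.14, adjusted p = 0.0040), and *Stat3*, which acts behind that receptor, by 0.31 (SE 0.11, adjusted p = 0.041), a call that was lost in 8 of the 10 fits with a tumor left out (adjusted p of 0.064 to 0.088) and a direction that turned with quantile normalization. Quantile normalization gave 1 of the 14 genes higher and 4 lower. The genes for the macrophage growth factor and its receptor, *Csf1* and *Csf1r*, had differences of 0.18 and -0.016, and *Csf2*, for GM-CSF, had 17.6 ± 8.17 and 23.8 ± 15.6 normalized counts (adjusted p = 0.56).

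Among 7 probes for FPR2 ligands and eicosanoid metabolism, 1 rose and 1 fell. *Anxa1*, whose product annexin A1 is a ligand of FPR2 that restrains neutrophils, fell from 4954 ± 365 to 3164 ± 154 normalized counts (SD, n = 5 each), a log2 difference of -0.65 (SE 0.081, adjusted p = 0.00036). It had an adjusted p of 0.10 with scaling to the positive control probes. *Saa1* and *Camp*, for other FPR2 ligands, had group means of at most 2.30 normalized counts. *Pla2g6*, a phospholipase A2, rose by 0.55 (SE 0.081, adjusted p = 0.00076), but 0 genes of this list were called higher with median scaling, quantile normalization or scaling to the positive control probes. Of 7 adhesion genes of vessels and leukocytes, 5 rose and 1 fell. *Sele*, for the E-selectin of activated endothelium on which neutrophils roll, rose by 0.75 (SE 0.14, adjusted p = 0.0022), *Pecam1* by 0.88 (SE 0.11, adjusted p = 0.00039) and *Itgal* by 0.85 (SE 0.16, adjusted p = 0.0022), while *Vcam1* fell by 0.39 (SE 0.14, adjusted p = 0.043). Of 6 endothelial marker genes, limma called 1, *Pecam1*, higher, 2 lower and 3 neither, with a median log2 difference of -0.38. The 2 lower were *Cdh5* at -0.45 (adjusted p = 0.0052) and *Vwf* at -0.79 (adjusted p = 0.0095). The *Vcam1* call was lost in 9 of the 10 fits with a tumor left out, at an adjusted p of 0.052 to 0.090, and held without KO replicate 5. Median scaling and quantile normalization each gave 3 of the 7 adhesion genes higher, and scaling to the positive control probes gave 0 higher and 0 lower.

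The other chemokine lists give the setting of the CXCR2 ligands. Of 11 other CXC chemokine and receptor genes, limma called 7 higher and 0 lower (0 lower also at an unadjusted p under 0.05 and by the methods' t-test), led by *Cxcr6* at 1.70, *Cxcr3* at 1.07 and *Cxcl12* at 0.87. The count of 7 fell to 4 without any one of WT replicate 3 and KO replicates 1, 3 and 5, to 4 with median scaling, to 4 with 1 lower under quantile normalization, and to 1 with scaling to the positive control probes. Of 14 CC chemokine and receptor genes of myeloid cells, 6 rose and 1, *Ccr3*, fell, led by *Ccl4* at 2.20, *Ccl3* at 2.02 and *Ccl11*. Median scaling and quantile normalization each left 6 higher and gave 4 lower. *Ccr2*, the receptor of inflammatory monocytes, had a difference of -0.13 (SE 0.14, adjusted p = 0.50). Over all 9 lists, which hold 98 different probes, 44 rose and 6 fell, a median of 0.46. Of the 44, 32 were also called with median scaling, 30 with quantile normalization and 16 with scaling to the positive control probes.

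**Figure D4:**
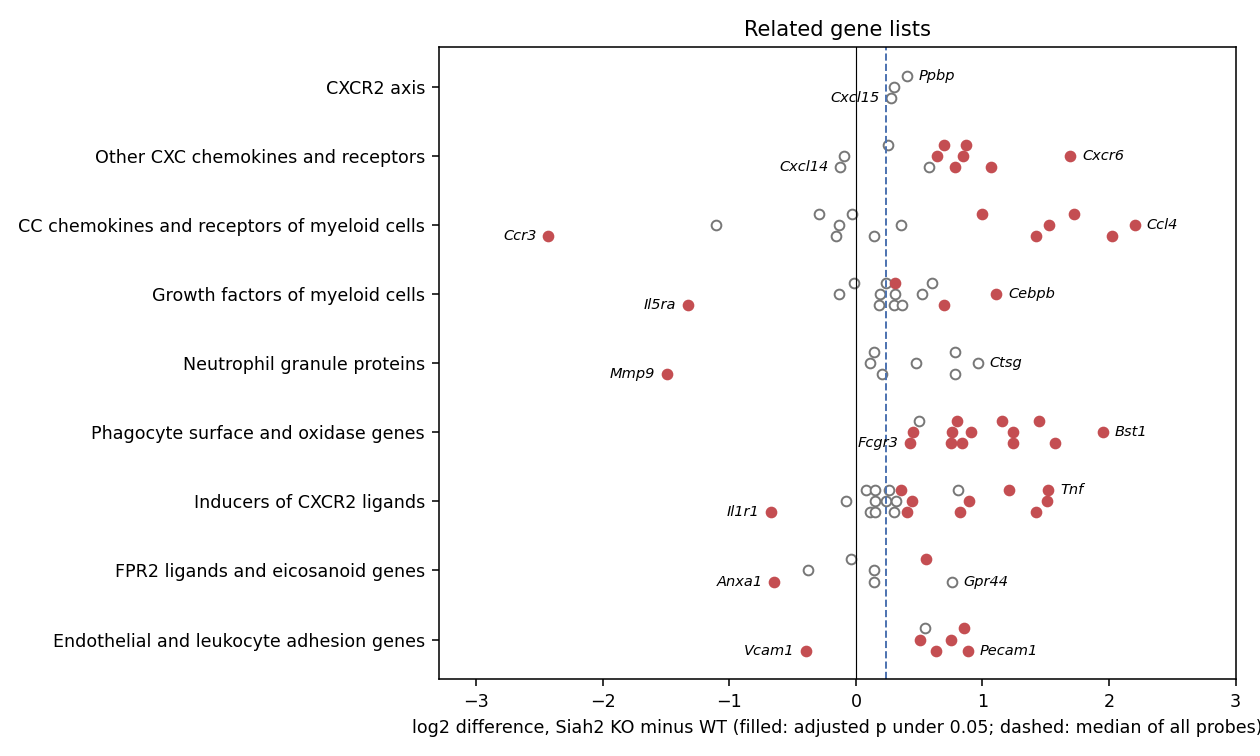
Log2 difference, Siah2 KO minus WT, of each gene in 9 related lists, filled in red at an adjusted p under 0.05 and open otherwise, with 0 as a solid line and the median of all 770 genes (0.24) dashed, and the lowest and highest gene of each list named. The phagocyte surface and oxidase genes lie above 0.4 throughout, while the granule proteins are open apart from *Mmp9*.

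How the 10 genes varied between tumors of the same genotype was not used to choose them. *Cxcl2*, *Cxcl3* and *Csf3* lay within background in WT tumors, where the floor limits their spread. Of the other 7 genes, 5 had a larger SD on the log2 scale among Siah2 KO than among WT tumors, all but *Cxcl1* and *Cxcr2*, and so did 69.6% of the 770 genes. KO replicate 6 was the lowest Siah2 KO tumor for 7 genes with a measured value and was alone at the floor for *Cxcl3*. For *Csf3* it shared the floor with KO replicates 1 and 3, and for *Fpr2* KO replicate 2 was lowest. The deviation of KO replicate 6 from its group mean was -0.87 on average over the 10 genes, floor values included, with a median of -0.69. KO replicates 3 and 5 lay above their group mean for 8 genes each, by 0.58 and 0.53 on average. Leaving out KO replicate 6 left 7 genes without overlap of the groups, with *Cxcl3* and *S100a8* added. Replicates 3 and 5 had the largest sums of leukocyte genes, 7952 and 9337 normalized counts, where the other 3 Siah2 KO tumors had 6169 to 6687, and the largest sums of monocyte and macrophage genes, 28890 and 37020 against 20030 to 24270. Among WT tumors, replicate 3 was lowest for 4 genes with a measured value, *Cxcl1*, *Cxcl5*, *Csf3r* and *Fpr2*. *Csf3* was at the floor in KO replicate 3, where *Cxcl2*, *Cxcl3*, *Cxcr2*, *S100a8* and *Ptgs2* had their highest value.

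**Figure D5:**
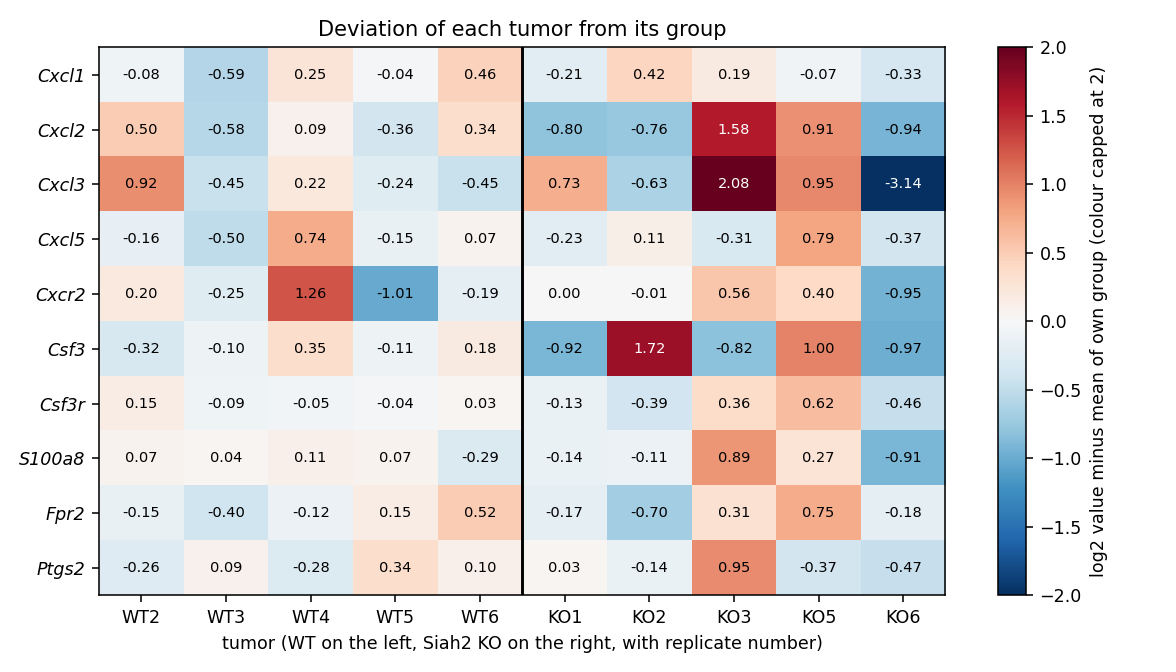
Deviation of each tumor from the mean of its own group, in log2(normalized count + 1), for the 10 genes (rows) and 10 tumors (columns, WT on the left), with the value in each cell. KO3 and KO5 are mostly red and KO6 is blue in every row, with -3.14 for *Cxcl3*, which is at the floor there.

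The genes of the panel most alike in these deviations over the 10 tumors were listed for the 6 genes whose mean reached 20 normalized counts, by Pearson's r, as a description. For *S100a8* they were *Tap2* (0.95), *Tnfsf14* (0.93) and *Cebpb* (0.93), and for *Csf3r* they were *Cd36* (0.95), *Psen2* (0.92) and *H2-Dma* (0.92). *Fpr2* was most like *Tnf* (0.94), *Cd14* (0.93) and *Icam2* (0.93), and *Ptgs2* like *Rpl19* (0.91), a reference gene, *Ikbkg* (0.89) and *Spp1* (0.88). *Cxcl5* was most like *Cxcl12* (0.89), and *Cxcl1* like *Tirap* (0.75), *Cklf* (0.74) and *Creb5* (0.74). None of the genes named here as most alike is another of the 10, but only the top places were listed. Some of the 10 still varied together. Over all pairs of the 10, r ran from -0.415 (*Cxcl5* and *Ptgs2*) to 0.908 (*Cxcl3* and *S100a8*), with floor values of *Cxcl3* included. Among the 6 genes alone, the highest r was 0.781, for *Csf3r* and *Fpr2*.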

How the data were processed

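RNA of 5 WT and 5 Siah2 KO tumors, 100 ng each, was hybridized to a NanoString immune profiling panel of 750 endogenous genes, 20 reference genes, 6 positive and 8 negative control probes. The signal is a normalized count that the authors made with nSolver 2.0 by scaling on the reference genes. Low values of the deposited signal also show that a constant was subtracted as background and that counts were held at 1 or more before scaling, which no source used here describes. In every tumor 100% of values under 150, the lowest values left out, were within 0.1 of a step of the scaling factor. The factor was chosen to make this share as large as possible. The background constant leaves no whole counts, so no count test was run, and no counting interval is given.

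Values were converted to log2(value + 1) and compared, Siah2 KO minus WT, over 770 genes by the linear model of limma (version 3.58.1, R 4.3.3) with moderated, two-sided tests and Benjamini-Hochberg adjustment over the 770 and a threshold of 0.05. The methods' t-test on log2 values was an alternative. Nothing in the sources says how the tumors were handled in batches, and p-values measure the spread between these tumors. The 10 genes and the lists were chosen with earlier results of these data known. Named from each list were the 3 genes with the largest positive and the 3 with the largest negative difference among those past the threshold and a mean of 20 normalized counts or more, and any gene in lists of up to 9. *Ccr3*, *Il5ra*, *Ms4a2*, *Trem1*, *Itgam*, *Il1r2*, *C5ar1*, *Clec5a*, *Tnfaip3*, *Il6*, *Il17a*, *Il17f*, *Il17ra*, *Nfkb1*, *Rela*, *Nfkbia*, *Myd88*, *Csf1*, *Csf1r*, *Csf2*, *Ccr2*, *Gbp5*, *Il16*, *Map3k7* and the marker genes were named after their values were seen. The fit was tested on simulated data. Sequences are from RefSeq tables of GRCm38.p6, and the promoter letters were chosen after the windows had been read, first in the form of 10 letters and then as the full shared stretch of 11. An allele of the cell line and the other genes most like *Cxcl5* are not reported here. Figures were made with matplotlib 3.10.9.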

Additional observations from a re-analysis of the deposited data

Results flagged for a closer look

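Of the 20 groups of 5 values (10 genes in 2 genotypes), 2 held a value far from the other 4. This was judged on normalized counts and not on the log2 scale, on which high values stand out less. A chance rate of about 1 in 20 holds for normally spread values, which was not checked here. *S100a8* in WT replicate 6 was at 119 normalized counts, with a gap to the nearest WT tumor that took 0.825 of the range of the group. *Ptgs2* in KO replicate 3 was at 1806 normalized counts, with a gap of 0.751 of the range.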

How the results depend on the processing

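The median log2 difference over the 10 genes was 0.69 to 1.21 over the alternatives and 0.92 to 1.18 with each tumor left out in turn, and 4 to 7 of the 10 did not overlap. Over the 770 genes, 316 were called, 241 higher and 75 lower. Median scaling gave 152 lower. Quantile normalization gave 153 higher and 181 lower, with 14 listed genes lower, and the median over all genes became -0.0074 with median scaling and -0.040 with quantile normalization. Scaling to the positive control probes gave 95 calls, 60 higher and 35 lower, and 16 listed genes higher and 3 lower. With the replicate number as a replicate block, which rests on 8 tumors, 45 genes were lower, and of the 44 listed genes that rose 36 remained called, against 37 in the same 8 tumors without the block, chosen after seeing the data. Deviations of same-numbered tumors correlated at 0.051 to 0.49, and 4 of the 8 tumors correlated best with their own number. The labels give these tumors the same number, and whether they share anything else was not tested. The cause of these changes was not tested. The edgeR alternative was not run. Values under about 20 normalized counts, among them all WT values of *Cxcl2*, *Cxcl3* and *Csf3*, limit what these data show.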
